A study of Mus musculus with 6 samples.

Results

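Genes of the VIP and PACAP signalling system were followed in the prelimbic cortex (PLc): Vipr2, Vipr1 and Adcyap1r1, which encode the receptors VPAC2, VPAC1 and PAC1, and Adcyap1, which encodes the peptide PACAP. They are 4 of the 37620 genes listed in the deposited table, each was found there once by its symbol, and all 4 were among the 16127 genes that passed a filter of at least 10 normalized counts on average over the 6 mice. The set was chosen by the difference of Vipr2 between ketamine and saline in these same libraries, with the other 3 genes added as its relatives. The ketamine against saline values of all 4 genes are therefore given as a description, without a test.

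VIP and PACAP are related neuropeptides of the secretin family. VPAC1 and VPAC2 bind both peptides, whereas PAC1 prefers PACAP, and all of them are class B G-protein-coupled receptors that mainly act through Gs to raise cAMP, which activates PKA and the transcription factor CREB. In the cortex VIP is made by a class of GABAergic interneurons and PACAP largely by subsets of excitatory neurons. VPAC2 is best known from the suprachiasmatic nucleus, where it keeps the neurons of the circadian clock in step.

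Tissue came from C57Bl/6 mice of 9 weeks, which the study's methods describe as male. Injections were given intraperitoneally once a day for 5 days, with saline in mice 1, 6 and 10 and with ketamine, an NMDA receptor blocker, at 30 mg/kg in mice 3, 5 and 9. The PLc was dissected 2 days after the last injection, and each library is labelled as 1 mouse. The values are normalized counts, that is, reads per gene scaled by the size factor of the library. Whole reads could be recovered for 100% of values and came to between 26273436 and 32643726 per library.

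All 12 cortical markers were detected in every library, with sums of 53335 to 74431 normalized counts after saline and 37897 to 61649 after ketamine. Libraries stood apart in markers of other regions and cells. The striatal list summed to 68949 and 36424 normalized counts in ketamine mice 3 and 5, against 11220 to 14603 in the other 4 mice. The list of olfactory bulb and olfactory areas summed to 16899.6 in ketamine mouse 9. The oligodendrocyte list summed to 388058 in saline mouse 10, against 45188 to 164770 in the other mice. Choroid plexus markers summed to 3157 in that mouse, against 110 to 797 in the others, while the microglial sums (8555 to 10082 after saline, 8928 to 9604 after ketamine) and those of endothelial and mural cells (8387 to 9037 and 7377 to 8492) overlapped between the groups. In RNA from a piece of tissue, fewer cells of a type and less RNA per cell cannot be told apart.

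The promoters of the 4 genes are shown to set the low-level Vipr2 gene beside its relatives, since CREB, a target of this pathway, binds a cAMP response element (TGACGTCA) or its core (TGACG). The windows run from 250 bases before to 50 bases after a start site, are taken from RefSeq on GRCm38.p6 and lie on the plus strand. Capitals mark TGACG, the GC box GGGCGG and the TATA box TATAAA on either strand. The windows lie at chr12:116077476-116077775 for Vipr2, chr9:121642466-121642765 for Vipr1, chr6:55451728-55452027 for Adcyap1r1 and chr17:93198918-93199217 for Adcyap1, which has a further window upstream.
Vipr2: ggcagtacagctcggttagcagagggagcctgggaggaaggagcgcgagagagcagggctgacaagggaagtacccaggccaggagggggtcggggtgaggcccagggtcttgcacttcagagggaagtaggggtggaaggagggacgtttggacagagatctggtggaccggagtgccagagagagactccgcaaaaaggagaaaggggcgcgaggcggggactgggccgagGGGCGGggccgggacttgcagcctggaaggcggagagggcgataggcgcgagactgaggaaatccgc
Vipr1: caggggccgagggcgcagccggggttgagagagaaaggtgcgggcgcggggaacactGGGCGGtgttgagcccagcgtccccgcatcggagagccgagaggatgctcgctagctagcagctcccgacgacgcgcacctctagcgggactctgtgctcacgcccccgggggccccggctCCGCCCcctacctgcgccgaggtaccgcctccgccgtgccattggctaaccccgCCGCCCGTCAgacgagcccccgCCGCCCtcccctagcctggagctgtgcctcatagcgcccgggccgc
Adcyap1r1: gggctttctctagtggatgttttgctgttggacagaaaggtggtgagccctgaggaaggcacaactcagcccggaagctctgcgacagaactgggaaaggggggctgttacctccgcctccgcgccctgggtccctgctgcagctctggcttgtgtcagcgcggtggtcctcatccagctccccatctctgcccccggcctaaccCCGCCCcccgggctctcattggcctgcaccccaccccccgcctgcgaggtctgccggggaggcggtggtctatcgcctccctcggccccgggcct
Adcyap1: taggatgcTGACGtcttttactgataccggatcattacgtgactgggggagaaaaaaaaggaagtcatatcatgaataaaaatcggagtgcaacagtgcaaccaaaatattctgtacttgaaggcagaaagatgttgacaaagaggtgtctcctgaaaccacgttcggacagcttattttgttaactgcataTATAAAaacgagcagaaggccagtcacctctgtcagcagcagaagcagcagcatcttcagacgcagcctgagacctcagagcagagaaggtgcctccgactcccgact

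The complete element TGACGTCA was in none of these windows and in 1.79% of the 32851 windows of this length. The core TGACG, found in 20.8% of all windows, occurred once in the Adcyap1 window, at position -242 counted from the start site, and once in the Vipr1 window, where it shares a base with a GC box. The Vipr2 and Adcyap1r1 windows held no core and 1 GC box each, and the Vipr1 window held 4 GC boxes. GC boxes were in 35.7% of all windows. The Adcyap1 window alone among those printed held a TATA box, which 13.6% of all windows have. Its GC content was 45.7%, below the median of 52.7% over all windows, whereas Vipr2, Adcyap1r1 and Vipr1 had 65.3%, 67.3% and 73.7%. These matches are a description of the letters and do not show binding.

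In saline mice the receptor genes differed widely in level. Per kilobase of exon, Adcyap1r1 had 793 ± 22.2 normalized counts, Vipr1 166 ± 39.4 and Vipr2 6.18 ± 1.85 (SD, n = 3), and the ranges of the 3 genes did not overlap. Adcyap1 had 413 ± 211 on the same scale, with a range from 169 to 540 that overlapped that of Vipr1, at 124 to 202. Vip, the gene of the other peptide, had 804 ± 353, and its range of 398 to 1042 overlapped those of Adcyap1r1 and Adcyap1. Among 16093 tested genes with an exon length, 86.4% had a lower mean level per kilobase in saline mice than Adcyap1r1, 74.0% than Adcyap1, 51.4% than Vipr1 and 4.99% than Vipr2. The PAC1 gene thus made up between 79.0% and 86.1% of the summed level per kilobase of the 3 receptors in each saline mouse, and Vipr2 between 0.493% and 0.869%.

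In ketamine mice the order of the receptors by mean was unchanged, at 1046 ± 134, 125 ± 41.2 and 53.8 ± 43.5 normalized counts per kilobase for Adcyap1r1, Vipr1 and Vipr2 (SD, n = 3). The distance between Vipr1 and Vipr2 was smaller, however, and their ranges met, at 98.5 to 173 for Vipr1 and 24.6 to 104 for Vipr2.

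**Figure D1:**
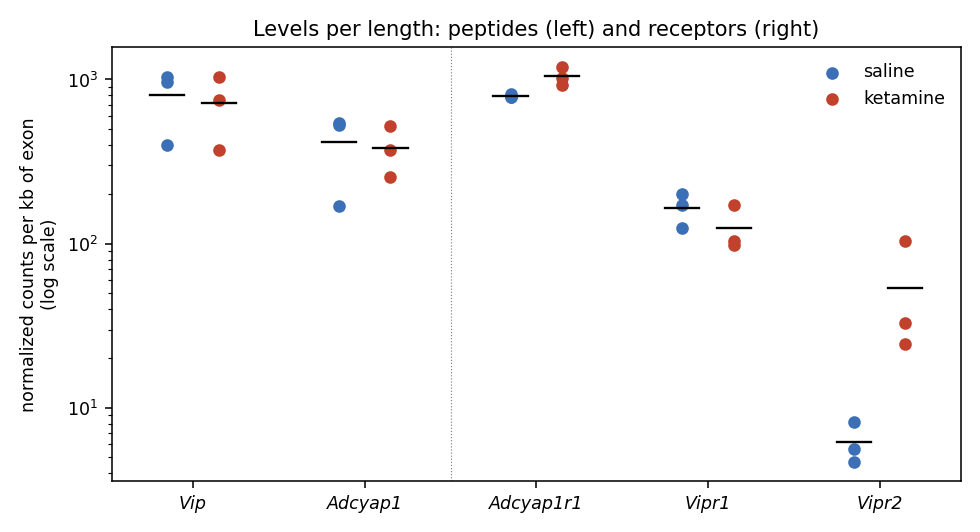
Normalized counts per kilobase of exon (log axis) of the peptide genes Vip and Adcyap1 and of the 3 receptor genes, with a point for each mouse and a line at the mean of 3 mice. Vipr2 is the lowest gene in saline, at 4.71 to 8.26, and reaches the range of Vipr1 in a ketamine mouse, at 104.

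Vipr2 (ENSMUSG00000011171) is a plus-strand gene at 117316196 to 117384734 of chromosome 12 (mm9). It had 16.3, 19.3 and 28.55 normalized counts in saline mice 1, 6 and 10, which are 17, 20 and 26 reads, and 85.2, 114 and 359 in ketamine mice 3, 5 and 9, which are 87, 121 and 396 reads. Every ketamine mouse stood above every saline mouse, and mouse 9 stood far above the other two. The exact 95% Poisson intervals were 18.6 to 41.8 normalized counts for saline mouse 10, the highest of its group, and 68.2 to 105 for ketamine mouse 3, the lowest of its group. These intervals cover counting error only.

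The mean of Vipr2 was 8.70 times as high in ketamine mice, and the log2 fold change was 2.81 (standard error 0.538, limma on log2(normalized count + 1)), a scale that understates changes of low counts. It came to 2.19 when ketamine mouse 9 was left out and to 3.03 when saline mouse 10 was. The highest value was 1.75 times the lowest among saline mice and 4.22 times among ketamine mice. A position with every ketamine mouse above every saline mouse was found for 918 genes, or 5.69% of those tested, and a position with every ketamine mouse below for 751, or 4.66%. Vipr2 and Adcyap1r1 were among the former and no member was among the latter. Since the set was chosen on this contrast, nothing is read from these counts.

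Vipr1 (ENSMUSG00000032528; mm9 chromosome 9, 121551834 to 121582072, plus strand), the gene of the other VIP receptor, had 960, 1122 and 689 normalized counts in saline mice 1, 6 and 10. Ketamine mice 3, 5 and 9 had 548, 961 and 581. Mice 3 and 9 were below every saline mouse while mouse 5 was within their range, so the groups overlapped. The log2 fold change was -0.43 (standard error 0.271), opposite in sign to that of Vipr2, and leaving out single mice gave -0.68 to -0.27. Among ketamine mice Vipr1 followed the order of the cortical marker list, which summed to 37897, 61649 and 49899 normalized counts in mice 3, 5 and 9. In saline mice both were lowest in mouse 10. Of this list, 9 of 12 genes had a log2 fold change below 0 and 3 above, with a median of -0.49. Of the 12, 2 genes, Neurod6 and Neurod2, lay under the saline range in each ketamine mouse and 1, Bcl11b, lay over it. The shares of all genes tested were 4.66% under and 5.69% over. No cortical marker was at 0, and the part of tissue make-up in the Vipr1 values was not tested.

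Adcyap1r1 (ENSMUSG00000029778; mm9 chromosome 6, 55401972 to 55451445, plus strand), the gene of the PACAP-preferring receptor, was the most abundant member per kilobase and varied least among saline mice. It had 5135, 5162 and 5402 normalized counts in saline mice 1, 6 and 10, while ketamine mice 3, 5 and 9 had 7854, 6745 and 6108. The groups did not overlap, and mouse 9 was the ketamine mouse nearest to the saline range. The log2 fold change was 0.39 (standard error 0.137), and without mouse 3 it was 0.30. The summed striatal list had the same order in ketamine mice, at 68949, 36424 and 12165 normalized counts in mice 3, 5 and 9. Of its 14 genes, 13 had a log2 fold change above 0, and 4 exceeded the saline range in each ketamine mouse, beside 5.69% of all genes tested. Isl1 alone was at 0, in saline mice 1 and 6. In mouse 9 the striatal sum lay within the saline range of 11220 to 14603 while Adcyap1r1 lay above its own. That sum joins genes that moved in opposite directions. Penk, Tac1, Adora2a and Gpr6 were above every saline mouse in mouse 9, and Drd1a, Pde10a, Rasd2 and Foxp1 were below every saline mouse. Astrocytes also express PAC1. The summed astrocyte list overlapped between the groups, at 96945 to 115090 and 78137 to 118052. Slc1a2 made up much of this sum, with 38388 in ketamine mouse 9 and 68982 in saline mouse 6, the lowest of its group. The mean log2 value over the 8 markers, relative to the saline mean, overlapped too. It was -0.28 to 0.43 after saline and -0.04 to 0.11 after ketamine. No astrocyte marker was at 0. In each ketamine mouse 1 of 8, the glutamate transporter gene Slc1a3, was above every saline mouse, beside 5.69% of all genes tested. The part of these cells in the Adcyap1r1 values was not tested.

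Adcyap1 (ENSMUSG00000024256; mm9 chromosome 17, 93598762 to 93604825, plus strand) had 1128, 1107 and 354 normalized counts in saline mice 1, 6 and 10, while ketamine mice 3, 5 and 9 had 532, 771 and 1092. The group means were 863 ± 441 and 798 ± 281 (SD, n = 3), and the spread within either group exceeded the difference between them. The log2 fold change was 0.01 (standard error 0.482), and its sign depended on the library left out, from -0.55 without saline mouse 10 to 0.29 without saline mouse 1. The lowest Adcyap1 value was thus in the library with the highest oligodendrocyte sum.

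**Figure D2:**
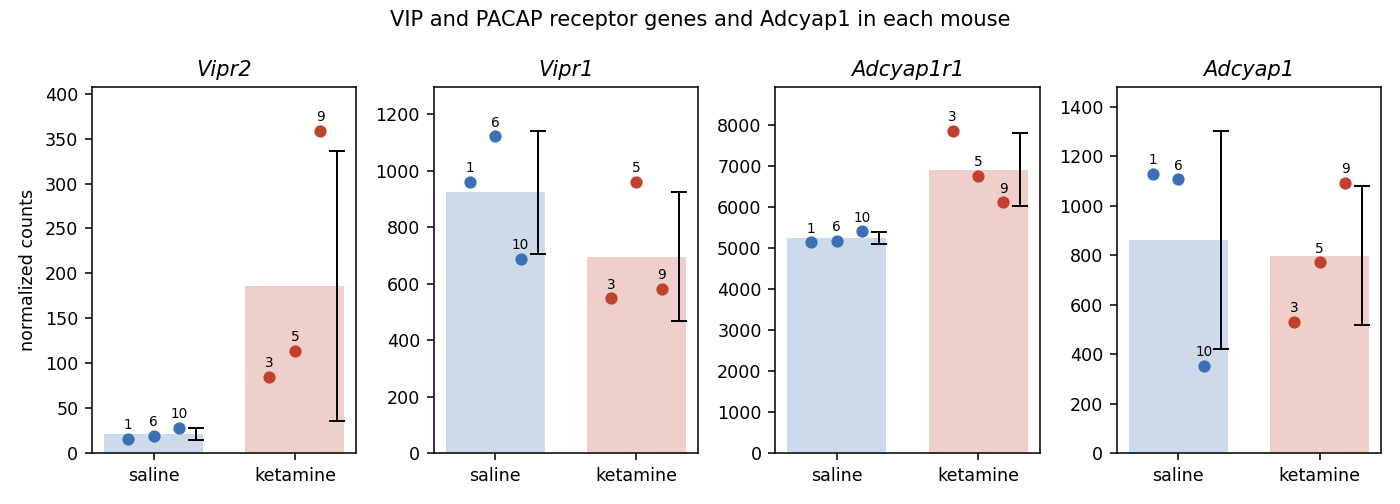
Normalized counts of the 4 genes in each mouse (points, labelled with the mouse number), with bars at the mean of 3 mice and error bars of 1 SD. Ketamine mice do not overlap saline mice for Vipr2 (85.2 to 359 against 16.3 to 28.55) and Adcyap1r1 (6108 to 7854 against 5135 to 5402), and do overlap for Vipr1 and Adcyap1.

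Within each mouse, Vipr2 was set against its relatives. Per kilobase, Vipr2 reached 2.73%, 2.77% and 6.67% of the level of Vipr1 in saline mice 1, 6 and 10. In ketamine mice 3, 5 and 9 it reached 25.0%, 19.1% and 99.4%. Against Adcyap1r1 the same share was 0.605% to 1.01% after saline and 2.07% to 11.2% after ketamine. Relative to Adcyap1 it was 0.871%, 1.05% and 4.88% in saline mice, the last of them in the mouse with the lowest Adcyap1 level, and 9.68%, 8.91% and 19.8% in ketamine mice. All ketamine mice were above all saline mice for each of these ratios. Vipr2, on whose difference the set was chosen, is the numerator of each, so nothing is read from this. Of the summed receptor level, the share of Vipr1 was 13.0% to 20.4% after saline and 7.50% to 14.1% after ketamine, and that of Vipr2 reached 1.88%, 2.68% and 9.16% in ketamine mice 3, 5 and 9. In mouse 9 the VPAC2 and VPAC1 genes were thus close to equal per kilobase, whereas in mice 3 and 5 the VPAC1 gene was well above the VPAC2 gene.

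The genes with values most like those of Vipr2 were sought among all tested genes, by the mean absolute difference over the 6 mice of log2 values taken relative to each gene's own saline mean. This distance is a description over 6 libraries that share the contrast. The nearest was Sp8, a transcription factor gene of olfactory bulb interneurons, at 0.14 on the log2 scale. Calb2 (calretinin), Ly6g6e, Prokr2 and Cacng5 followed at 0.27, 0.30, 0.33 and 0.35. The median distance of a gene was 1.57, and 1% of genes were nearer than 0.956. Sp8 had 51.7, 66.6 and 84.6 normalized counts in saline mice 1, 6 and 10, while ketamine mice 3, 5 and 9 had 237, 336 and 1423. It therefore had the same order of all 6 mice as Vipr2. Prokr2, a prokineticin receptor gene known for its role in olfactory bulb development, had 27.8, 28.95 and 38.4 after saline and 191, 169 and 257 after ketamine.

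Sp8 belongs to the list of olfactory bulb and olfactory area markers, and several other genes of that list also ranked near Vipr2. Of its 14 genes, 13 had a log2 fold change above 0, with a median of 2.24. The saline range was exceeded in each ketamine mouse by 6 of them, Tbx21, Eomes, Cdhr1, Doc2g, Sp8 and Omp, and by 5.69% of all genes tested. By distance to Vipr2, Sp8 was at rank 1, Doc2g at 11, Cdhr1 at 37, Nmb at 48 and Tbx21 at 110 of 16126 genes, while Reln, Gng13, Lhx5 and Lhx1 ranked between 7979 and 15827. The summed list was 4216, 4434 and 4319 normalized counts in saline mice 1, 6 and 10, while ketamine mice 3, 5 and 9 had 6822, 6138 and 16899.6. Lhx1 was at 0 in saline mice 1 and 6 and Lhx5 in mouse 1. The mitral and tufted cell genes Tbx21 and Cdhr1 had 47.0, 26.3 and 362, and 900, 817 and 4006, in ketamine mice 3, 5 and 9, and at most 3.86 and 120 in a saline mouse. Both the sum and Vipr2 were highest in mouse 9, and mice 3 and 5 stood in opposite order. Slc17a6, which is also among the thalamic markers, weighed on that order, with 1352 in mouse 3 and 503 in mouse 5. Sp8, Omp, Gng13 and Reln were higher in mouse 5, as Vipr2 was, and the other genes of the list were higher in mouse 3. The mean log2 value over the list, relative to the saline mean, was 1.88 in mouse 3 and 1.36 in mouse 5. The part of olfactory tissue in the Vipr2 values was not tested.

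A list of VIP interneuron markers was examined as well, since Calb2 is expressed in many of these cells. Of its 10 genes, 6 had a log2 fold change above 0, with a median of 0.20, and only Calb2 exceeded the saline range in each ketamine mouse, at 1860, 945 and 7274 normalized counts against at most 646. Npas1 lay under the saline range. The shares of all genes tested were 5.69% over and 4.66% under. Vip itself had 571, 1140 and 1573 in ketamine mice 3, 5 and 9. The summed list was 3322 to 3950 after saline and 3491 to 10439 after ketamine, and no marker was at 0. Without Calb2, left out after its values were seen, the other 9 genes summed to 2972 to 3304 after saline and 2547 to 3165 after ketamine. The thalamic list summed to 1818 to 3941 after saline and 2041 to 3492 after ketamine, and its groups overlapped.

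The genes nearest to Adcyap1 were Msln, Hs3st2 and Chrdl1, at distances of 0.08, 0.09 and 0.12, all of which were lowest in saline mouse 10 and next lowest in ketamine mouse 3. Vip had 1482, 1591 and 608 normalized counts in saline mice 1, 6 and 10, so that both peptide genes were low in mouse 10. Pcsk1 and Pcsk2, which encode the convertases that cut neuropeptide precursors, had 391 and 9865 in that mouse against at least 1023 and 19602 in the other saline mice. They were lower still in ketamine mouse 9, at 381 and 9305, where Adcyap1 and Vip were high, so they did not follow the peptide genes over all mice. The summed oligodendrocyte list was 57564, 45188 and 388058 in saline mice 1, 6 and 10, while ketamine mice 3, 5 and 9 had 164770, 107555 and 118426, with no marker at 0. The part of white matter content in the Adcyap1 values was not tested. Nearest to Vipr1 were Exd2, Smpd4 and Wdr90, at 0.07, 0.08 and 0.08, and nearest to Adcyap1r1 were Moxd1, Pde9a and Ddah1, at 0.05 each. Over all genes the median distance was 0.58 to Adcyap1, 0.42 to Vipr1 and 0.31 to Adcyap1r1.

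**Figure D3:**
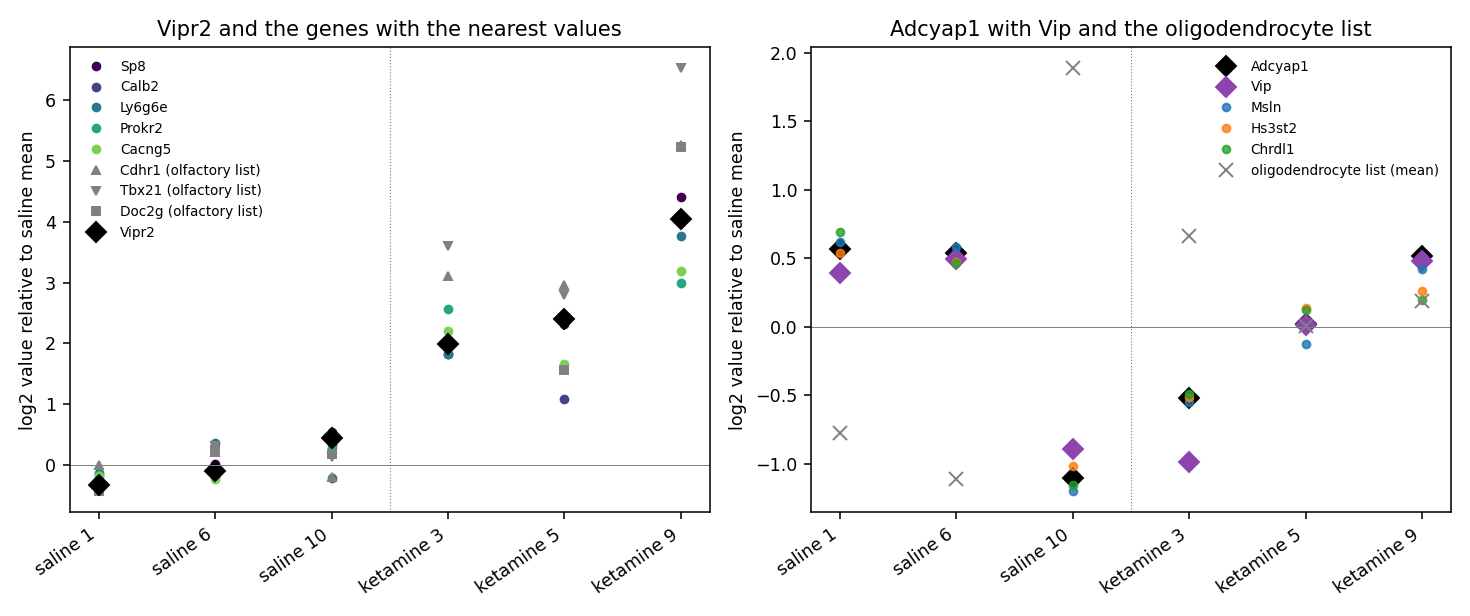
Log2 values in each mouse relative to the gene's mean over the saline mice, for Vipr2 with its 5 nearest genes and 3 olfactory markers (left) and for Adcyap1 with Vip, its 3 nearest genes and the mean of the oligodendrocyte list (right). Vipr2 and Sp8 have the same order in all 6 mice, and Adcyap1 and Vip are both low in saline mouse 10, where the oligodendrocyte list is highest at 1.88.

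The members' pathway was then described from 8 lists holding 81 entries beside the members, of which 74 passed the filter. limma called none of the 74 at an adjusted p under 0.05, as it called 0% of all genes, of which 937 had an unadjusted p under 0.05, and 6 of the 74 had an unadjusted p under 0.05. edgeR's quasi-likelihood test on the recovered reads also called none. DESeq2 on the same reads called 1 of the 74 higher and 1 lower, beside 0.899% of all genes called higher and 0.229% called lower. The median log2 fold change of the 74 was -0.0013, with 37 above 0 and 37 below, and that of all tested genes was -0.014. Of these 74 genes, 2 lay over the saline range in each ketamine mouse and 6 lay under it, beside 5.69% and 4.66% of all genes tested.

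Among the ligands, Vip was at -0.16 ± 0.475 (log2 fold change and SE), with an adjusted p of 0.999 by limma. Sct, Ghrh, Gcg and Gip had at most 5.87 normalized counts in any mouse and did not pass the filter. Besides the members, 9 class B receptors passed, with 7 above 0 and 2 below and a median of 0.37. Neither limma nor DESeq2 called any of these receptors, and DESeq2 gave Calcr no adjusted p.
Glp2r, the gene of a receptor for glucagon-like peptide, had 106, 116 and 58.2 normalized counts in saline mice 1, 6 and 10, while ketamine mice 3, 5 and 9 had 28.4, 59.3 and 25.4, and limma gave a log2 fold change of -1.33 ± 0.414 (SE) with an adjusted p of 0.659. Calcr, the calcitonin receptor gene, had 235 normalized counts in ketamine mouse 3 and at most 3.29 in any other mouse. Glp1r was likewise highest in that mouse, at 55.8, and had 1.81 in ketamine mouse 9. Crhr1, a receptor gene for corticotropin-releasing hormone, had 374, 763 and 981 in ketamine mice 3, 5 and 9 and 616 to 986 in saline mice. For Gipr, Crhr2, Pth1r, Pth2r and Calcrl the log2 fold changes lay between 0.05 and 0.60, with an adjusted p of 0.999 by limma for each.

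Receptor activity modifying proteins are membrane partners of class B receptors. Ramp3, which is also among the 10 thalamic markers, had 478, 441 and 342 normalized counts in saline mice 1, 6 and 10, while ketamine mice 3, 5 and 9 had 191, 255 and 259. Its groups did not overlap, and limma gave a log2 fold change of -0.83 ± 0.201 (SE) with an adjusted p of 0.416. With DESeq2 the adjusted p was 0.0339, but it exceeded 0.05 when saline mouse 1 or 6 or ketamine mouse 3 or 5 was left out, at 0.570, 0.476, 0.388 and 0.0702. Ramp1 had a log2 fold change of 0.12 (adjusted p = 0.999 by limma), and Ramp2 was highest in ketamine mouse 9, at 760 normalized counts against 287 to 513 elsewhere.

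Downstream of the receptors, Sik1, a salt-inducible kinase gene that is itself induced by cAMP, had 202, 231 and 353 normalized counts in saline mice 1, 6 and 10. It had 623, 734 and 492 in ketamine mice 3, 5 and 9, all above the saline mice. By limma the log2 fold change was 1.25 ± 0.252 (SE) and the adjusted p was 0.328. DESeq2 gave an adjusted p of 0.00331, which exceeded 0.05 when saline mouse 1 or 6 or ketamine mouse 3 or 5 was left out, at 0.107, 0.128, 0.0755 and 0.0593. Over the 19 CREB and cAMP-responsive genes, 13 were above 0 and 6 below, with a median of 0.22. Bdnf, another target of CREB, was in the opposite direction, at -0.86 (standard error 0.253, adjusted p = 0.628 by limma).
Of the 13 genes of G proteins and adenylyl cyclases, 3 were above 0 and 10 below, with a median of -0.13. Adcy1, the calcium-stimulated cyclase, had 29640, 23038 and 27593 normalized counts in saline mice 1, 6 and 10, while ketamine mice 3, 5 and 9 had 13573, 22042 and 6676, for which limma gave a log2 fold change of -1.08 ± 0.402 (SE) and an adjusted p of 0.784. Gnaq, whose product couples receptors to phospholipase C, was at -0.24 (adjusted p = 0.969 by limma). In the list of PKA, Epac and PDE4, 8 of 12 were above 0, with a median of 0.02. The Epac genes Rapgef4 and Rapgef3 were at -0.65 and 0.31 (adjusted p = 0.768 and 0.986 by limma).
Peptide processing and breakdown had 3 of 10 genes above 0 and a median of -0.10, with Pcsk2 at -0.61 and Scg5 at -0.26 (adjusted p = 0.969 and 0.999 by limma). Receptor kinases and arrestins, which end receptor signalling, had 1 of 7 above 0 and a median of -0.12. Adrbk1, the gene of a kinase that acts on activated receptors, was at -0.33 (adjusted p = 0.865 by limma) and Arrb2 at -0.13 (adjusted p = 0.999 by limma).

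**Figure D4:**
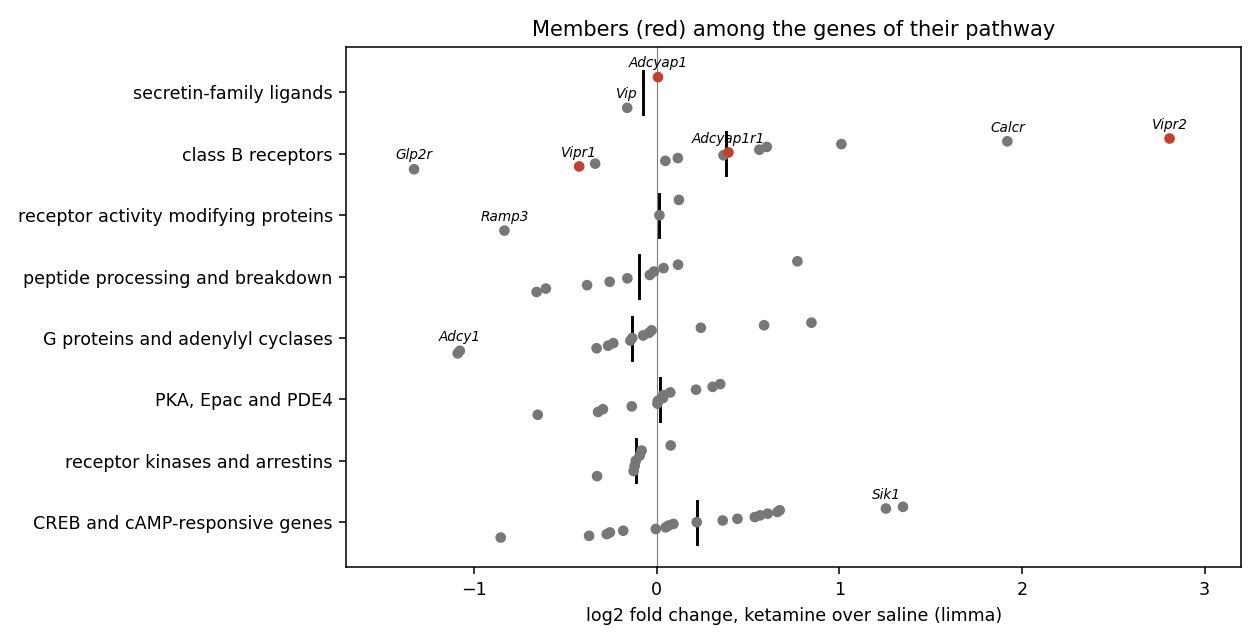
Log2 fold changes between ketamine and saline by limma for the tested genes of 8 lists of the VIP and PACAP pathway, with the 4 members in red and a line at the median of each list, members included. Vipr2 is at 2.81, while Vipr1, Adcyap1r1 and Adcyap1 are at -0.43, 0.39 and 0.01.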

How the data were processed

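Whole-tissue RNA of 6 PLc samples was sequenced as paired-end reads. The authors aligned them to mm9 with TopHat2 2.0.11, counted reads per gene with HTSeq and used DESeq2. The annotation, strand setting and filters are not given in the sources used here. The unit of the deposited table is thus a normalized signal, read counts scaled by the size factor of each library, and a read is worth 0.906 to 1.10 normalized counts. Columns were matched to samples by mouse number. Every value was within 0.1 of a whole multiple of its library's step, and the reads were recovered by division. Nothing in the labels says more of the replicates than that each is a mouse.

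log2(normalized count + 1) was fitted across 16127 genes with limma 3.58.1 in R 4.3.3, letting the prior variance follow the mean level. Two-sided p-values received a Benjamini-Hochberg adjustment over all genes, and the threshold was 0.05. Recovered reads were also fitted with edgeR 4.0.16 and DESeq2 1.42.0, with 40 genes given no adjusted p by DESeq2. The fits were also run on simulated counts, drawn independently for each gene. These held no tissue differences shared between genes, so the simulation does not show how the fits behave with them. Exon lengths and gene positions are from GENCODE M1 on mm9, where no gene overlaps a member. Promoter windows are from RefSeq on GRCm38.p6, with 4 of 4 members matched.

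The members and all lists were chosen with earlier results of these data known. Named are the members, the ligands and class B receptors, the 2 genes with the smallest limma p in each pathway list, pathway genes called by DESeq2, and the 5 genes nearest to Vipr2 and 3 nearest to each other member. Other genes were named after their values were seen. Symbols came from the deposited table, then from older symbols, with 14 of 15 striatal markers found. Of 10 marker lists, those of microglia, endothelial and mural cells and choroid plexus were used as checks only. Protein sequences were not used here.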

Additional observations from a re-analysis of the deposited data

How the results depend on the processing

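The alternatives were a pseudocount of 0.1 or 5, no filter or one at 100 normalized counts, scaling by recomputed size factors or by the upper quartile, limma with a constant prior variance, edgeR and DESeq2. Over these 9 alternatives the log2 fold changes ranged from 2.60 to 3.14 for Vipr2, from -0.43 to -0.39 for Vipr1, from 0.39 to 0.42 for Adcyap1r1 and from -0.10 to 0.04 for Adcyap1, all shifts smaller than the spread within groups. With each mouse left out in turn the ranges were 2.19 to 3.22, -0.68 to -0.27, 0.30 to 0.48 and -0.55 to 0.29. The number of pathway genes called besides the members was 0 under limma and all its alternatives and under edgeR, and 2 with DESeq2, and the cause of this difference was not tested. The fits of Sik1 and Ramp3 by DESeq2 with a mouse left out were added after seeing the data. No paired analysis was made because the labels give no pairing of mice between the groups. The groups hold 3 mice each, libraries stand apart in markers of other cells and regions, and Vipr2 in saline mice rests on 17 to 26 reads.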
